A study of Homo sapiens with 6 samples.

Results

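The proteasome genes of H460 cells were examined in polyA RNA-seq libraries made after depletion of the long intergenic noncoding RNA *HKlincR1*. The genes were chosen by name alone, as the protein-coding genes whose GENCODE v44 symbol on GRCh37 is PSMA, PSMB, PSMC, PSMD, PSME, PSMF or PSMG followed by a number. The rule matched 50 annotated genes, and 49 of them had a row among the 57773 genes of the RPKM table. PSMB3, a core beta subunit, had no row under its current identifier and was not analysed here. Of the 49 genes, 47 encode proteasome subunits, activators, an inhibitor or assembly factors. The other two, PSMC3IP and PSME3IP1, met the rule through their names only, since PSMC3IP is a meiotic recombination factor and PSME3IP1 is a nuclear protein that binds the activator PSME3.

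H460 is a human line of non-small-cell lung cancer. The 3 siNT libraries came from cells transfected with a non-targeting siRNA and the 3 siHKlincR1 libraries from cells transfected with 1 siRNA against *HKlincR1* (siHKlincR1_2), in both cases at 50 nM with RNAiMAX for 48 hours, so both groups share the transfection. The labels call the libraries biological replicates but do not say that they came from separate passages, and p-values measure the spread between these libraries only. As 1 siRNA in 1 cell line was sequenced, effects of *HKlincR1* loss and other effects of that siRNA cannot be told apart.

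The proteasome degrades proteins that carry ubiquitin chains. Its 20S core is a stack of rings, with outer rings of alpha subunits that gate the channel and inner rings of beta subunits, 3 kinds of which hold the proteolytic sites. The 19S cap has a base, with a ring of ATPases that unfold substrates and non-ATPase subunits that receive them, and a lid, whose PSMD14 removes ubiquitin. Interferon-inducible beta subunits replace the constitutive catalytic ones in the immunoproteasome, PA28 and PA200 activators can bind the core in place of the cap, and dedicated chaperones assemble core and base.

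The libraries held 24980280 to 30521000 reads, worked back from the unrounded RPKM values, and 90.1% to 91.3% of them lay on listed genes. *HKlincR1* was at 3.62, 3.47 and 3.83 RPKM in siNT and at 0.563, 0.628 and 0.39 RPKM in siHKlincR1. The knockdown libraries were all lower, with a mean reduction of 85.5% (p = 0.1 in an exact two-sided permutation test, which can give no lower p for 3 libraries against 3). Of 5 epithelial markers, the keratins KRT8, KRT18 and KRT19 were well expressed, while EPCAM was at 0.0159 to 0.11 RPKM and CDH1 had 1 read in 1 library and 0 in the other 5, and the summed level of the 5 was 148.0 to 170.0 RPKM in siNT and 149.0 to 168.0 in siHKlincR1. The summed level of 6 leukocyte markers was 0.156 to 0.399 RPKM over all 6 libraries, and that of 5 testis markers was at most 0.0314 RPKM.

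Most proteasome genes were abundant in H460 cells. RPKM is a level per gene-model length, so levels could be set side by side. Genes averaging under 0.5 RPKM were not tested. Of the 49 genes, 47 reached that level, and 23 of these 47 lay above the 90th percentile of the 15451 genes tested. PSMA8, the testis-specific alpha subunit, and PSMB11, the thymus-specific catalytic subunit, had 0 reads in all 6 libraries. The least covered tested gene, PSMA2, had 96 reads in its poorest library, and the best covered, PSMD11, had 9220 in its richest.

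The beta subunits of the constitutive core were the most abundant role. PSMB6, the caspase-like catalytic subunit, measured 106.0, 105.0 and 111.0 RPKM in siNT and 107.0, 100 and 113.0 RPKM in siHKlincR1, and was the most abundant gene of the family per gene-model length. PSMB1, a non-catalytic subunit, was the lowest of the role at 52.3, 47.8 and 50.1 RPKM in siNT and 51.4, 47.3 and 49.5 RPKM in siHKlincR1. The 6 beta genes had a median of 78.3 RPKM. Their mean levels ran in the order PSMB6 (107.0), PSMB7 (92.0), PSMB4 (88.6), PSMB2 (68.0), PSMB5 (56.4) and PSMB1 (49.7). The ranges of the neighbours PSMB7 and PSMB4, PSMB2 and PSMB5, and PSMB5 and PSMB1 overlapped across the libraries. Within every library, however, PSMB2 was above PSMB5 and PSMB5 above PSMB1, whereas PSMB7 and PSMB4 changed order between libraries. This order depends on the gene model: per length of the canonical transcript, PSMC5 (214.0), PSMB4 (208.0) and PSMB7 (201.0) would stand above PSMB6 (185.0), and PSMB2 (41.5) would be the lowest of the beta genes. Such values divide the reads counted on the whole model by another length and are not levels of that transcript. For PSMB2 the model (2701 bases) was shorter than the canonical transcript (4426 bases), so bases outside the model added length but no reads.

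The alpha subunits, which are present in the core in the same number of copies as the beta subunits, ranged more widely. PSMA7 was the highest at 80.8, 74.4 and 89.9 RPKM in siNT and 76.9, 72.7 and 83.9 RPKM in siHKlincR1. PSMA2 was the lowest at 0.784, 0.86 and 1.11 RPKM in siNT and 0.633, 0.765 and 0.971 RPKM in siHKlincR1. PSMA4 (65.1 RPKM), PSMA3 (34.2) and PSMA5 (19.5) lay between, and PSMA1 (5.44) and PSMA6 (3.36) were near the low end.

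**Figure D1:**
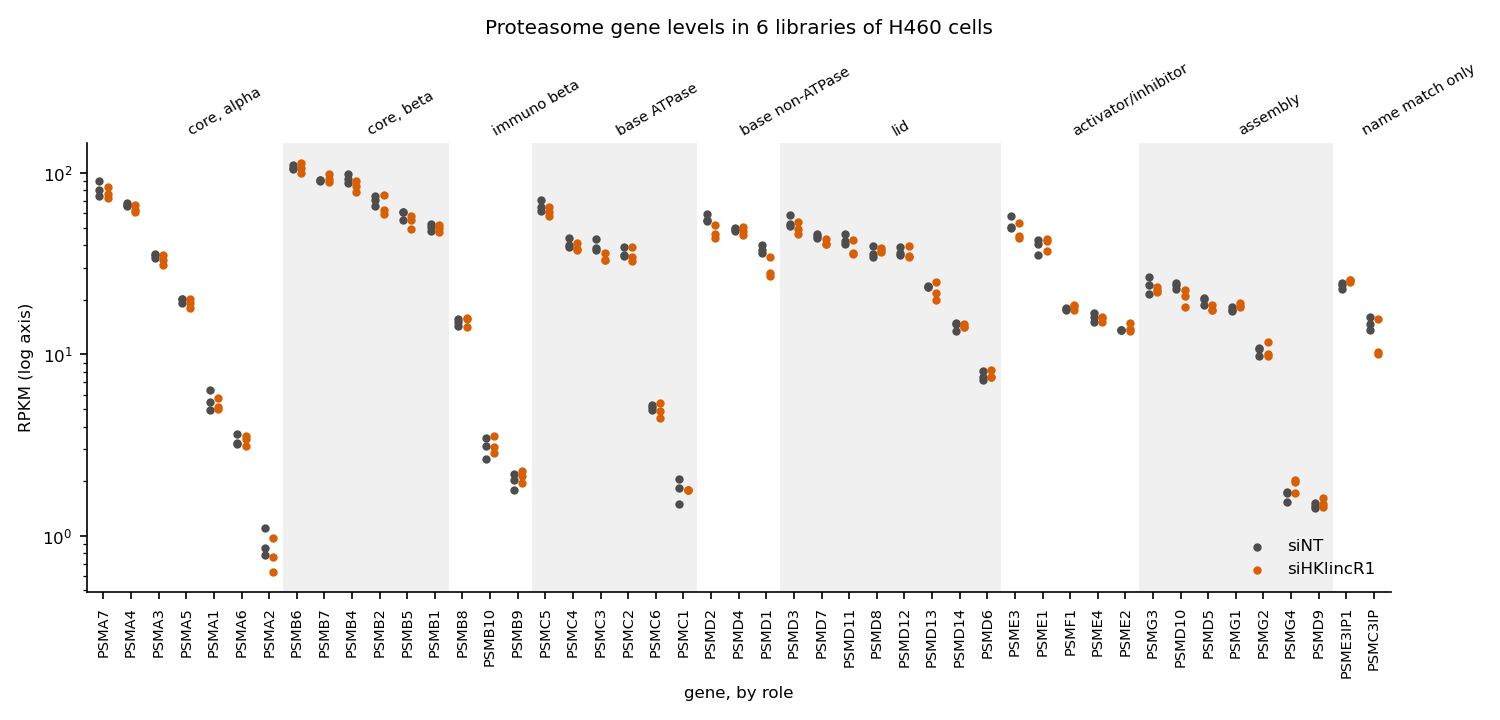
RPKM (log axis) of the 47 tested genes in each of the 6 libraries, with genes grouped by role and ordered by mean level within a role; grey points are siNT and orange points siHKlincR1. The core beta genes form a band from 47.3 to 113.0 RPKM, whereas the 6-library means of PSMA2, PSMC1, PSMG4 and PSMD9 are 0.854, 1.79, 1.79 and 1.49 RPKM.

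In the 19S cap the picture was similar. Among the base ATPases, PSMC5 was the highest at 61.9, 64.5 and 71.3 RPKM in siNT and 57.7, 61.1 and 64.9 RPKM in siHKlincR1. PSMC1 was the lowest at 1.83, 1.49 and 2.06 RPKM in siNT and 1.78, 1.79 and 1.79 RPKM in siHKlincR1, with PSMC6 next at a mean of 5.01 RPKM. The 8 lid genes ran from PSMD3 (51.7 RPKM) to PSMD6 (7.65 RPKM), and PSMD14, the deubiquitinase of the lid, was at 14.3 RPKM.

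The low alpha and ATPase genes were those whose sequence is shared with other annotated genes or with copies elsewhere in the genome. Every 75-base window, the read length of these libraries, was searched for exact copies in GRCh37, and exon bases were compared with those of other genes in the table. PSMA2 (chr7:42956427-42971784, minus strand) shared 100% of its exon bases with a readthrough gene on the same strand, PSMA6 (chr14:35747839-35786699, plus strand) shared 81.4% and PSMA1 (chr11:14526420-14665181, minus strand) shared 67.0%. These readthrough genes were themselves at 0.0107 to 0.0261 RPKM (at PSMA2), at means of 0.133 in siNT and 0.199 in siHKlincR1 (at PSMA6) and at 0 (at PSMA1).

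Exact copies were found for the low ATPases, and also for the low alpha gene PSMA6 (14.2% of windows) and for PSMD4 (11.9%), which was not low. For PSMC1 (chr14:90722871-90741773, plus strand) 32.9% of windows had an exact copy elsewhere, mostly in the processed pseudogene PSMC1P1 (chr3:68684856-68686175, plus strand), and for PSMC6 18.0% did. PSMC1P1 was 99.9% identical to the PSMC1 transcript over 1320 bases, and it measured 65.7, 69.9 and 71.3 RPKM in siNT and 63.5, 64.5 and 70.9 RPKM in siHKlincR1. PSMC1 had 153 to 180 reads per library and PSMC1P1 2352 to 2815, so that PSMC1 took 5.15% to 6.85% of the reads of both. Coding bases 301 to 420 of PSMC1 (GRCh37 chr14:90730027-90730146, plus strand) are shown because a read from them cannot be assigned to one locus: they are the same letter for letter in PSMC1P1 (chr3:68685156-68685275, plus strand).
PSMC1 and PSMC1P1: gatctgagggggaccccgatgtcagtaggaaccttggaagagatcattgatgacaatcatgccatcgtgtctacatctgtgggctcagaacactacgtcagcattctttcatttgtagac

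PSMA2 also has an abundant processed pseudogene, PSMA2P3 (chr2:203044020-203044694, plus strand), at 33.7, 33.8 and 33.9 RPKM in siNT and 30.3, 29.4 and 34.8 RPKM in siHKlincR1. It was less alike, with 93.8% identity over 679 bases, and 1.25% of PSMA2 windows had an exact copy anywhere. The same coding bases, 301 to 420, are given for PSMA2 (chr7:42964274-42964347 and chr7:42962960-42963005, minus strand) and its copy (chr2:203044316-203044435, plus strand) to show the contrast with PSMC1. The 9 bases that differ are in capitals.
PSMA2: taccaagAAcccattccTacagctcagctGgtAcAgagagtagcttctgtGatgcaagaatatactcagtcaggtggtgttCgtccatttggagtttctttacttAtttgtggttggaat
PSMA2P3: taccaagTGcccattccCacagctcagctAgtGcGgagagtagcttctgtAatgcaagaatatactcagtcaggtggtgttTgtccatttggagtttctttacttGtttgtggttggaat

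Among the 30 tested core, base and lid genes, 7 had exact copies or same-strand shared exons over at least 10% of their length, and their median level was 5.01 RPKM. The other 23 had a median of 40.5 RPKM, and the lowest of them was PSMD6 at 7.65 RPKM. PSMB5 and PSMD4 were exceptions, at 56.4 and 48.5 RPKM despite a share over 10%. The length of the gene model also differs from that of a single transcript. The models were a median of 1.87 times as long as the canonical transcript, and 13 of the 47 were at least 3 times as long, among them PSMG4 (13.3 times), PSMD6 (6.68), PSMA6 (6.33) and PSMA2 (3.72). Those of PSMF1 (0.6 times), PSMB2 (0.61), PSMC1 (0.764) and PSMA4 (0.877) were shorter than it. Divided by the canonical transcript length instead, the RPKM of PSMG4 would be 23.7 and that of PSMA6 21.2, whereas that of PSMA2 would be 3.18. Some genes also shared exon bases with a gene on the opposite strand, 83.2% for PSMC1 (with NRDE2), 57.2% for PSMC3IP (with MLX), 51.6% for PSMD7 and 13.7% for PSMC5 (with FTSJ3), and no source used here says whether the counting used strand. The part of shared sequence and of model length in the measured levels was not tested. Across all 43 rows of proteasome pseudogenes outside the Y chromosome, 11 had a mean of at least 5 RPKM.

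**Figure D2:**
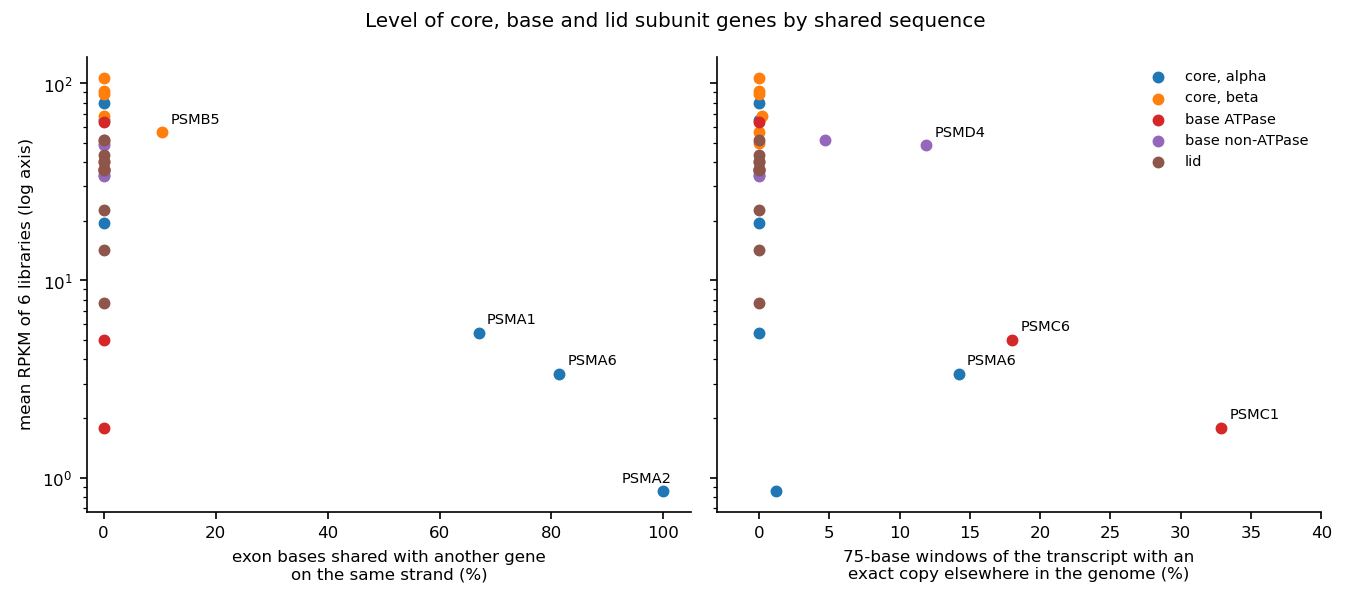
Mean RPKM of the 6 libraries (log axis) for the 30 tested core, base and lid genes against the share of exon bases held in common with another gene on the same strand (left, %) and against the share of 75-base transcript windows with an exact copy elsewhere in GRCh37 (right, %). On the left, PSMA1, PSMA6 and PSMA2 lie low at shares of 67.0%, 81.4% and 100%, while PSMB5 does not. On the right, PSMA6, PSMC6 and PSMC1 lie low at 14.2%, 18.0% and 32.9%, while PSMD4 does not.

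The immunoproteasome subunits were present at a small part of the level of the constitutive subunits they replace. PSMB8, which takes the place of PSMB5, measured 15, 14.3 and 15.7 RPKM in siNT and 15.6, 14.1 and 15.8 RPKM in siHKlincR1. PSMB9, which takes the place of PSMB6, was at 2.19, 1.78 and 2.02 RPKM in siNT and 2.14, 1.96 and 2.27 RPKM in siHKlincR1. PSMB10, which takes the place of PSMB7, was at 3.13, 2.65 and 3.46 RPKM in siNT and 2.86, 3.55 and 3.08 RPKM in siHKlincR1. All 3 overlapped between the groups. PSMB10 shared 56.1% of its exon bases with a readthrough gene on the same strand, itself at a mean of 0.497 RPKM in siNT and 0.463 RPKM in siHKlincR1, whereas PSMB8 and PSMB9 shared none.

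The constitutive partners were far higher. PSMB5, the chymotrypsin-like subunit, measured 60.5, 54.7 and 60.7 RPKM in siNT and 55.1, 49.0 and 58.2 RPKM in siHKlincR1. PSMB7, the trypsin-like subunit, measured 89.8, 91.0 and 91.6 RPKM in siNT and 89.4, 92.1 and 98.1 RPKM in siHKlincR1. PSMB8 was thus 25.6% of PSMB5 in siNT, PSMB9 was 1.86% of PSMB6 and PSMB10 was 3.39% of PSMB7. Per length of the canonical transcript the shares would be 27.1%, 3.26% and 2.94%, which puts PSMB9 over PSMB6 above PSMB10 over PSMB7.

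The ratio within each library asks whether knockdown shifted the balance between the forms. PSMB8 over PSMB5 was 0.248, 0.262 and 0.259 in siNT and 0.283, 0.288 and 0.272 in siHKlincR1, so every knockdown library lay above every siNT library, by 0.13 on the log2 scale in the mean. That is the most extreme order 3 against 3 can give (two-sided exact permutation p = 0.1), and it is 0.3 after adjustment over the 3 ratios compared. PSMB5 had the lower mean in siHKlincR1 while PSMB8 hardly moved. PSMB9 over PSMB6 was 0.0186 ± 0.0019 in siNT and 0.0199 ± 0.000275 in siHKlincR1 (SD, n = 3; exact permutation p = 0.4, adjusted 0.6). PSMB10 over PSMB7 was 0.0339 ± 0.00439 in siNT and 0.034 ± 0.00392 in siHKlincR1 (SD, n = 3; exact permutation p = 1.0, adjusted 1.0).

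**Figure D3:**
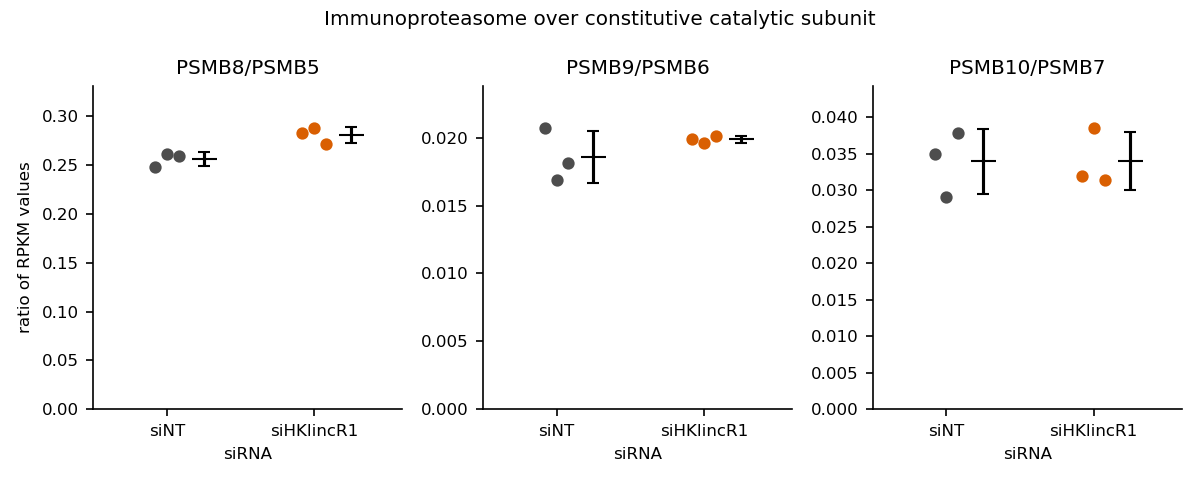
Ratio of the RPKM of each immunoproteasome catalytic subunit to that of the constitutive subunit it replaces, for each library (points) with the group mean and SD (bars, n = 3); each axis starts at 0. Only for PSMB8 over PSMB5 do the groups not overlap, at 0.248 to 0.262 in siNT and 0.272 to 0.288 in siHKlincR1.

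No proteasome gene was called after *HKlincR1* depletion. With limma on log2(RPKM + 0.1), Benjamini-Hochberg adjustment over all genes tested and a fold above 1.5, 0 of the 47 genes passed, against 0.362% of all tested genes (56 genes). When the replicate number entered the limma fit as a block, 0 of the 47 were called against 1.32% of all tested genes, and a voom fit of the reads worked back also called 0. At an unadjusted p under 0.05 limma gave 4 genes lower (PSMD1, PSMD2, PSMC3 and PSMD10) and 0 higher. These 4 are 8.51% of the genes, against 9.19% lower and 7.04% higher among all tested genes. The block moved this count to 10 genes lower (21.3%, against 14.0% of all tested genes) and 0 higher (against 12.3%).

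Most of the changes were small, and the data bounded them well. The log2 fold changes of the 47 genes ran from -0.35 for PSMD1 to 0.18 for PSMG4, with a median of -0.059 against 0.0011 over all tested genes, and 32 of the 47 lay within 0.1 of 0. A negative value was found for 32 of the 47 (68.1%), against 49.8% of all tested genes, a count that ran from 26 to 35 when single libraries were left out and was 27 after quantile normalization. The median size of the change, regardless of sign, was 0.071 for these genes and 0.143 for all genes tested. Of the 47, 23 lay above the 90th percentile of level, and no comparison with genes of like level was made. For 44 of the 47 the 95% interval lay within a 1.5-fold change in either direction, and only those of PSMD1, PSMA2 and PSMC3IP reached beyond it. In these bulk libraries, fewer cells with a transcript and less of it per cell cannot be told apart.

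**Figure D4:**
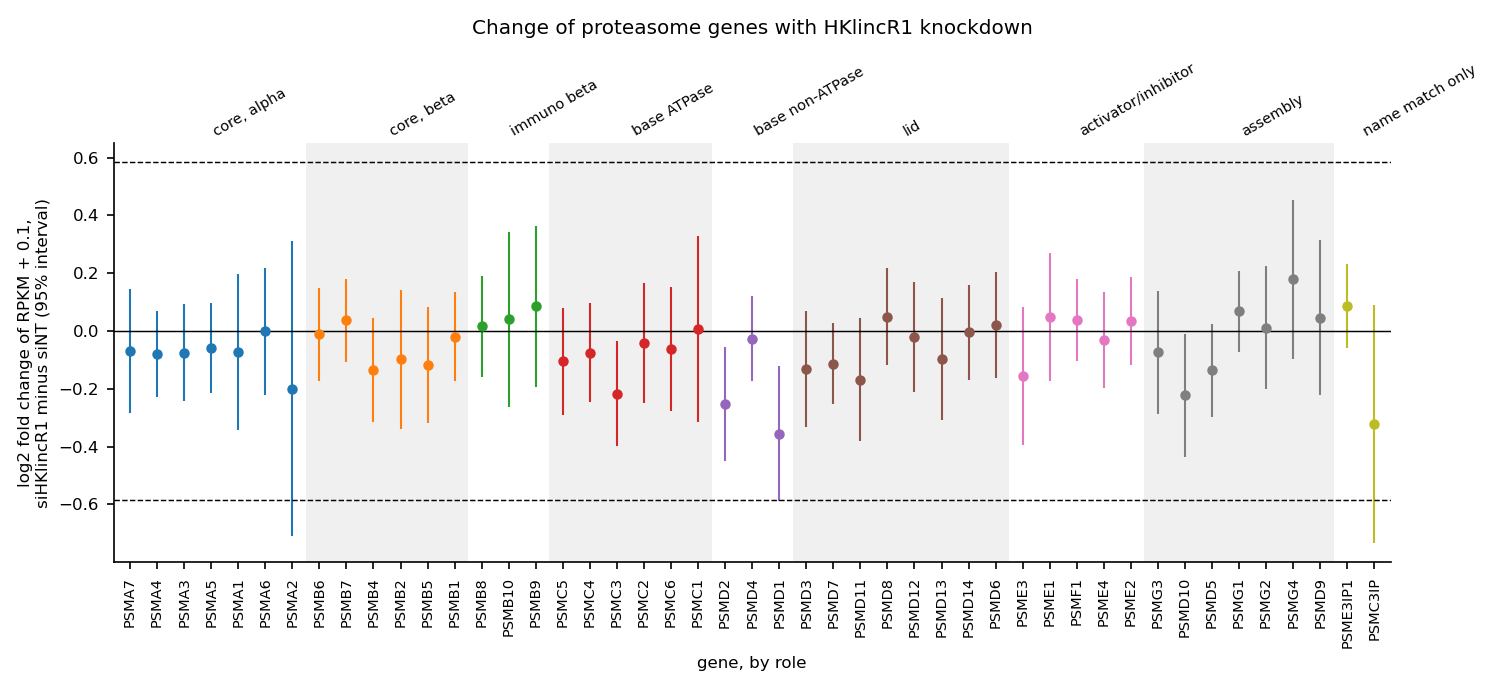
Log2 fold change of RPKM + 0.1 in siHKlincR1 against siNT for the 47 tested genes by role, with 95% intervals from limma (n = 3 libraries per group); dashed lines mark a 1.5-fold change either way. The points lie between -0.35 and 0.18, and 44 of the 47 intervals stay inside the dashed lines.

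Of the proteasome genes proper, the base non-ATPase subunits PSMD1 and PSMD2 had the lowest log2 fold changes. PSMD1 (chr2:231921559-232037830, plus strand), a large scaffold of the base that docks ubiquitin receptors, measured 36.4, 37.6 and 39.9 RPKM in siNT and 28.1, 27.1 and 34.2 RPKM in siHKlincR1. All 3 knockdown libraries were below all siNT libraries, with replicate 3 the highest of its group in both. The log2 fold change was -0.35 (SE 0.099, 95% interval -0.59 to -0.12, limma adjusted p = 0.199). Leaving out siHKlincR1 replicate 3 gave -0.46 with a limma adjusted p of 0.0284, and the adjusted p over all 16 alternatives ran from 0.0113 to 0.524.

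PSMD2 (chr3:184016986-184026838, plus strand), the other large scaffold of the base, behaved in the same way. It measured 54.0, 54.7 and 59.4 RPKM in siNT and 45.9, 43.5 and 51.8 RPKM in siHKlincR1. The groups did not overlap, and the log2 fold change was -0.25 (SE 0.084, 95% interval -0.45 to -0.056, limma adjusted p = 0.244). Without siHKlincR1 replicate 3 it was -0.33 with a limma adjusted p of 0.0475. Exact copies covered 4.68% of PSMD2 windows and none of those of PSMD1. PSMD4, a ubiquitin receptor and the third gene of the role, was at 48.9 ± 0.729 RPKM in siNT and 48.0 ± 2.42 RPKM in siHKlincR1 (SD, n = 3), and its groups overlapped.

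Among the ATPases the largest difference was that of PSMC3 (chr11:47440320-47448024, minus strand), at 37.6, 38.6 and 43.2 RPKM in siNT and 33.1, 33.3 and 36.1 RPKM in siHKlincR1. The knockdown libraries were again all below siNT, with a log2 fold change of -0.22 (SE 0.077, 95% interval -0.40 to -0.036, limma adjusted p = 0.264). PSMC4 (-0.075), PSMC5 (-0.10), PSMC2 (-0.043) and PSMC6 (-0.063) had smaller negative log2 fold changes, and PSMC1 was at 0.007, all with overlapping groups.

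The 8 lid genes had 6 negative and 2 positive log2 fold changes, with a median of -0.060. PSMD11, a scaffold of the lid, had the largest at -0.17, from 40.6, 42.0 and 45.8 RPKM in siNT to 35.7, 36.0 and 42.6 RPKM in siHKlincR1, and its groups overlapped (limma adjusted p = 0.383). PSMD7, the partner of PSMD14, was at 44.9, 46.1 and 43.5 RPKM in siNT and 40.6, 43.0 and 40.8 RPKM in siHKlincR1, without overlap, and its log2 fold change was -0.11 (adjusted p = 0.377 from limma). The values of the others were -0.13 for PSMD3, -0.098 for PSMD13, -0.021 for PSMD12, -0.005 for PSMD14, 0.020 for PSMD6 and 0.049 for PSMD8, all with overlapping groups.

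All 7 tested alpha genes had log2 fold changes below 0, from -0.20 for PSMA2 to -0.001 for PSMA6, and in each of them the groups overlapped. PSMA1, PSMA3, PSMA4, PSMA5 and PSMA7 lay between -0.059 and -0.080. PSMA2 had the largest but also the widest interval of the alpha genes, from -0.71 to 0.31, at the lowest read counts of the family, and it was at -0.068 without siNT replicate 3 or siHKlincR1 replicate 1 and at -0.34 without siHKlincR1 replicate 3. Of the 6 beta genes, 5 were below 0, led by PSMB4 at -0.135 (92.5, 87.6 and 98.1 RPKM in siNT and 84.5, 78.8 and 90 RPKM in siHKlincR1), followed by PSMB5 (-0.12), PSMB2 (-0.098), PSMB1 (-0.020) and PSMB6 (-0.011), and PSMB7 was at 0.037, all with overlapping groups. Without siHKlincR1 replicate 2, PSMB4 was at -0.086, PSMB5 at -0.047 and PSMB6 at 0.035, and PSMB6 was also above 0 without siNT replicate 3 (0.014), while PSMB7 was at -0.001 without siHKlincR1 replicate 3. The 3 tested immunoproteasome genes were near 0, at 0.016 for PSMB8, 0.040 for PSMB10 and 0.086 for PSMB9. The signs of PSMB8 and PSMB10 turned when 1 library was left out, to -0.017 and -0.060 without siNT replicate 2, to -0.042 for PSMB10 without siHKlincR1 replicate 2, and to -0.003 and -0.015 for PSMB8 without siHKlincR1 replicates 1 and 3, respectively. No difference between roles was tested.

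The activators and the inhibitor scattered around 0. PSME3, the nuclear PA28 gamma activator, had the largest difference at -0.16, from 49.4, 50.2 and 58.1 RPKM in siNT to 43.7, 44.8 and 53.0 RPKM in siHKlincR1, and its groups overlapped. It was at -0.082 without siNT replicate 3 and at -0.24 without siHKlincR1 replicate 3. The lowest of the role was PSME2, a subunit of the interferon-inducible PA28, at 13.7, 13.6 and 13.7 RPKM in siNT and 14.8, 13.8 and 13.5 RPKM in siHKlincR1. Its partner PSME1 was at a mean of 40.1 RPKM, the PA200 activator PSME4 at 15.8 RPKM and the inhibitor PSMF1 at 18.0 RPKM.

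The assembly factors pointed both ways. PSMD10, also known as gankyrin, a chaperone of the base, measured 24.2, 23 and 24.7 RPKM in siNT and 21.1, 18.2 and 22.5 RPKM in siHKlincR1, without overlap (log2 fold change -0.22, SE 0.090, limma adjusted p = 0.3; -0.14 without siHKlincR1 replicate 2). PSMG1, a core chaperone that works with PSMG2, was the only proteasome gene with every knockdown library above every siNT library, at 17.5, 17.4 and 18.3 RPKM in siNT and 19.1, 18.3 and 18.4 RPKM in siHKlincR1 (log2 fold change 0.068, limma adjusted p = 0.578). PSMG3, another core chaperone, was the most abundant of the role, at 24, 21.4 and 26.8 RPKM in siNT and 23.4, 22.7 and 22.1 RPKM in siHKlincR1.

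PSMG4, which acts with PSMG3, had the highest fold change of the family, 0.18, at 1.75, 1.54 and 1.72 RPKM in siNT and 2.02, 1.98 and 1.72 RPKM in siHKlincR1, with 1 knockdown library inside the siNT range. The base chaperone PSMD9 was the lowest of the role at 1.42, 1.46 and 1.52 RPKM in siNT and 1.49, 1.44 and 1.62 RPKM in siHKlincR1, and it shared 28.8% of its exon bases with another gene on the same strand. PSMD5, also a chaperone of the base, was at -0.14 and PSMG2 at 0.012 on the log2 scale, with overlapping groups.

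In all, 5 of the 47 genes (10.6%) had every knockdown library below every siNT library, against 11.9% of all tested genes, and 2 (4.26%) had every one above, PSMG1 and the name match PSME3IP1, against 10.1%. The other name match, PSMC3IP, was at 13.6, 14.7 and 16.0 RPKM in siNT and 10.0, 10.3 and 15.7 RPKM in siHKlincR1, with overlap, and its log2 fold change of -0.32 became -0.53 (limma adjusted p = 0.0294) without siHKlincR1 replicate 3 and -0.21 without siHKlincR1 replicate 1.

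Many of the genes were highest in the same replicate. In siNT, 34 of the 47 genes (72.3%) were highest in replicate 3, against 38.5% of all tested genes, and in siHKlincR1 31 (66.0%) were highest in replicate 3, against 39.1%. This did not hold for every role: the mean of the activators and inhibitor was lowest in replicate 3 of siNT (0.002, 0.008 and -0.011, relative to the mean of siNT). Genes of like level were not compared. Between same-numbered libraries, 20 of the 47 (42.6%) were lower in the knockdown library of all 3 pairs, against 25.2% of all tested genes, and 4 (8.51%) were higher in all 3, against 24%. Of the proteasome roles, with the 2 name matches left aside, the base non-ATPase genes lay lowest, with a mean log2 level of -0.224, -0.316 and -0.096 in the 3 knockdown libraries, relative to the mean of siNT. The mean of all 47 genes was -0.074, -0.113 and 0.010 in the knockdown libraries and -0.015, -0.048 and 0.063 in siNT. The ranges of the groups overlapped, but between same-numbered libraries the mean was lower in the knockdown library of all 3 pairs, with differences of -0.060, -0.065 and -0.053, against -0.005, -0.009 and 0.002 for all tested genes. The genes share libraries, and their counts are descriptions rather than independent observations.

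**Figure D5:**
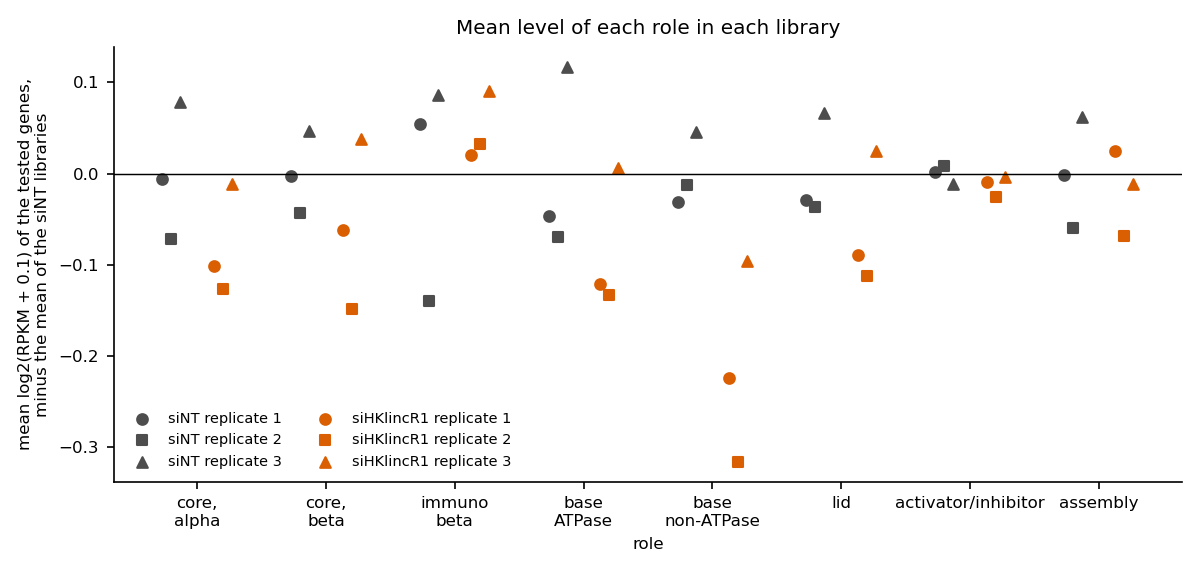
Mean log2(RPKM + 0.1) of the tested genes of each role in each library, minus the mean of the 3 siNT libraries; grey symbols are siNT, orange symbols siHKlincR1, and the shape gives the replicate number. Of the 8 roles shown, the base non-ATPase genes lie lowest in siHKlincR1, at -0.096 to -0.316, and replicate 3 is the highest knockdown library for every role except assembly.

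The genes most like the mean of the 47, by Pearson correlation of log2 values over the 6 libraries, were RABEP2 (r = 0.9949), FSCN1 (0.9945), ASB16-AS1 (0.9934), DYNLL1 (0.9929) and RHOC (0.9929). These values are a description of 6 points, chosen as the highest among all other tested genes.

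The siRNA was compared with the 3′ UTRs of the proteasome genes, since the seed of a guide strand can pair with other transcripts. The guide strand is shown with its seed, bases 2 to 8, in capitals, followed by the sites in PSMD1, PSMD10 and PSMD7, which had no overlap between groups, and in PSMG1, which did not overlap in the other direction. Capitals in the sites mark the 7 bases complementary to the seed, and the coordinates are those of GRCh37.
guide strand: aAGCACACgaguauacuuc
PSMD1 (chr2:232037416-232037422, plus strand): ctgttgaGTGTGCTctttcac
PSMD10 (chrX:107327656-107327662, minus strand): ttggatgGTGTGCTctaaaat
PSMD7 (chr16:74339688-74339694, plus strand): taaatcaGTGTGCTgctagag
PSMG1 (chr21:40547183-40547189, minus strand): aagtgcaGTGTGCTatcatgg

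A site was found in 6 of the 47 genes (12.8%), close to the 14.0% of the 10764 tested protein-coding genes with a 3′ UTR. PSMB1 also had 1 site and PSMD9 had 2. The median log2 fold change was -0.066 with a site and -0.059 in the 41 genes without, and the genes with a site included PSMD1 at one end and PSMG1 (0.068) at the other. Of the 4 genes lower at an unadjusted p under 0.05 in limma, PSMD1 and PSMD10 had a site, and PSMD2 and PSMC3 had none. The part of the seed in these changes was not tested.

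Proteasome genes are known targets of NFE2L1, a transcription factor that is released when the proteasome is inhibited and binds antioxidant response elements with small MAF partners. The letters TGACNNNGC were searched on both strands in promoters of 250 bases before to 50 after the RefSeq start (GRCh38.p14), which were given for 43 of the 49 genes. They were found in 12 of the 43 (27.9%), against 13.6% of 27305 promoters. Those promoters were not limited to tested or protein-coding genes. No comparison with promoters of genes of like level was made, so whether the letters are enriched was not tested. The 5 matches that lay within 100 bases before the start are shown with the matching letters in capitals, in the direction of the gene.
PSME4 (chr2:53971011-53971035, minus strand): cggcggctGCAGCGTCAccagcaga
PSMD3 (chr17:39980762-39980786, plus strand): ccctttgtTGACTCGGCcatcggcc
PSMG2 (chr18:12658691-12658715, plus strand): gtttcccgTGACCCCGCggccgctc
PSME1 (chr14:24136100-24136124, plus strand): ggcagggcTGACCCCGCctcctcca
PSMD9 (chr12:121888680-121888704, plus strand): gcttccggTGACCCAGCtccgccct

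The 12 genes with the letters had a median log2 fold change of -0.005, and the 29 other tested genes with a promoter had -0.076. NFE2L1 itself was at 62.4, 66.4 and 47.2 RPKM in siNT and 87.0, 97.8 and 52.8 RPKM in siHKlincR1. The groups overlapped through replicate 3, which was the lowest of each group, and the log2 fold change was 0.40 (SE 0.239, 95% interval -0.16 to 0.96, limma adjusted p = 0.426). Of the 7 genes listed for this control, which include the protease DDI2, the glycanase NGLY1 and the MAF partners, 0 passed limma or voom in either direction, and 2 were below and 5 above 0. At an unadjusted p under 0.05 limma gave 1 lower (MAFK, -0.24) and 0 higher, against 9.19% and 7.04% of all tested genes. With the replicate block, unadjusted limma p-values under 0.05 were those of NFE2L1 (0.00521), NGLY1 (0.00689) and NFE2L2 (0.0162), all higher, and MAFK (0.00441), lower. Over all tested genes the block gave 12.3% higher and 14.0% lower. After adjustment 0 of the 7 passed with the block. For this and the further lists, passing meant an adjusted p under 0.05 with no fold threshold. Of the 15451 tested genes, 70 passed limma, 139 passed voom and 452 passed limma with the block.

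Further genes of the pathway were compared from lists. Among 11 proteasome genes named outside the PSM scheme, such as the chaperone POMP and the receptor ADRM1, 0 passed limma or voom, with a median log2 fold change of -0.020, and limma gave 1 lower and 1 higher (UCHL5, 0.19) at an unadjusted p under 0.05, against 9.19% and 7.04% of all tested genes. The largest change was that of USP14, a deubiquitinase of the cap, at 24.3, 25.1 and 26 RPKM in siNT and 21.2, 20.9 and 22.7 RPKM in siHKlincR1. Its groups did not overlap, and the log2 fold change was -0.22 (limma adjusted p = 0.214). Those of UCHL5 did not overlap in the other direction, at 35.9, 37.5 and 33.1 RPKM in siNT and 39.0, 42.5 and 39.9 RPKM in siHKlincR1.

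Of 14 ubiquitin, activating enzyme and shuttle factor genes, 0 passed limma or voom, 7 were below 0 and 7 above, and at an unadjusted p under 0.05 limma gave 3 lower (NPLOC4, UBB at -0.28 and VCP at -0.25) and 0 higher, against 9.19% and 7.04% of all tested genes. NPLOC4, a cofactor of the unfoldase VCP, had the largest change, at 29.2, 29.7 and 32.6 RPKM in siNT and 23.2, 23.9 and 26.6 RPKM in siHKlincR1. All knockdown libraries were lower (log2 fold change -0.31, limma adjusted p = 0.178), and with the replicate block the limma adjusted p was 0.0444. With the block, 452 of the 15451 tested genes had an adjusted p under 0.05.

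Of 11 genes of MHC class I presentation and interferon signalling, which act with the immunoproteasome, 0 passed limma or voom and 0 had an unadjusted p under 0.05, and 10 of the 11 had log2 fold changes below 0 with a median of -0.086. The largest was TAP2, a subunit of the peptide transporter, at 5.15, 5.72 and 4.8 RPKM in siNT and 4.41, 5.13 and 3.51 RPKM in siHKlincR1, with overlap (log2 fold change -0.27, limma adjusted p = 0.384).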

How the data were processed

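The authors prepared strand-specific polyA libraries with paired 75-base reads, counted reads with Rsubread (featureCounts) on Ensembl v74 gene models on GRCh37 (hg19), and deposited RPKM values per gene, that is reads scaled by gene-model length and library total; CASAVA 1.8.2 is named in the submitters' processing notes. The aligner, and the treatment of strand and of reads shared by several genes, are not given in the sources used here. The deposited RPKM values were unrounded, so reads could be worked back (100.0% of nonzero values whole within 0.0001). Library totals limit the precision of low genes.

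The 55538 identifiers found in GENCODE v44 gave the names. Genes averaging 0.5 RPKM or more (15451) were fitted on the log2(RPKM + 0.1) scale by limma 3.58.1 (R 4.3.3), with eBayes and trend. Benjamini-Hochberg adjustment covered all of them. Calls needed a fold above 1.5 and an adjusted p below 0.05. A fold on this scale understates changes of low genes. Single values were compared by exact two-sided permutation tests. The members and lists were chosen with earlier results of these data known. Named genes were every called gene, the catalytic pairs, the largest change and the highest and lowest level of each role, genes with a seed site, and the largest change of each further list. The steps were tested on simulated data. Same-numbered libraries of the 2 groups deviated together (correlations of 0.142, 0.137 and 0.266, all over 0.1), so the replicate numbers from the labels were used as a block in an alternative fit. Differently numbered libraries ran from -0.209 to 0.113. Of these, siNT replicate 1 with siHKlincR1 replicate 2 was also over 0.1 and close to the lower same-numbered values. Other alternatives changed the pseudocount, filter, scaling, variance model and test, and left out each library. Levels per length of the canonical transcript were added after seeing the data. They divide the reads of the whole gene model by that length.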

Additional observations from a re-analysis of the deposited data

How the results depend on the processing

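Under 16 alternatives 0 of the 47 genes were called at a fold above 1.5, while calls among all tested genes ran from 7 to 518. With no fold threshold, 0 of the 47 had an adjusted p under 0.05 except in 2 alternatives with 3 each, in which 2006 and 1163 of the 15451 tested genes passed. These were the voom fit with the replicate block, chosen after seeing the data (PSMD1 -0.35, PSMD2 -0.25 and PSMC3 -0.21), and the fit without siHKlincR1 replicate 3 (PSMD1, PSMD2 and PSMC3IP). Leaving out 1 library gave 0 to 3 such genes, and leaving out any other library gave 0. The replicate block of the RPKM fit left the count at 0 and the median at -0.059, and the lowest adjusted p among the 47 was then 0.0554, for PSMD1. With the block, 204 of all tested genes were called in place of 56, with voom 90, with voom and the block 417, and with no trend 17. The median log2 fold change of the 47 genes stayed below 0, from -0.086 to -0.021. The number of the 47 with a mean below 0 was 32. It was 26 without siNT replicate 3 or siHKlincR1 replicate 2, 35 without siNT replicate 2 and 27 after quantile normalization. The *HKlincR1* reduction was 83.6% to 86.9% without each library, and the PSMB8 over PSMB5 difference was 0.109 to 0.157, that of PSMB9 over PSMB6 0.037 to 0.181 and that of PSMB10 over PSMB7 -0.100 to 0.086 on the log2 scale, chosen after seeing the data. The cause of these shifts was not tested. Genes with few reads, such as PSMA2, have wide intervals, and 3 libraries a group limit the rest.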
